A study of Mus musculus with 23 samples.

Results

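Haematopoietic stem cells that carry CD41 on their surface were compared between mice with the V617F form of the kinase JAK2 and wild-type (WT) mice. These cells make up 5 of the 23 RNA-seq libraries of the series, chosen by their labelled fraction and genotype: 3 libraries of V617F mice (V617F 1, 2 and 3) and 2 of WT mice (WT 3 and WT 4). The V617F mice were C57BL/6 SclCre;V617F transgenic animals, in which a Cre under the Scl promoter is used with tamoxifen to activate the mutation. WT mice of the same strain also received tamoxifen, over the same 5 days, and the labels list no Cre for them. Marrow of leg bones was taken 12 weeks later and sorted for cells without lineage markers or CD48 that carry Kit, Sca-1, CD150 and CD41. V617F 2 came from a male mouse and the other libraries from females. The sources used here do not give ages, the number of mice per library or the species of the JAK2 transgene. RNA was amplified with SMART-Seq v4, a full-length method for small cell numbers, and libraries were made with Nextera XT.

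JAK2 transmits the signal of many cytokine receptors to STAT transcription factors, and V617F is the substitution that makes the kinase active without a cytokine in many myeloproliferative neoplasms. Activated STAT5 induces its own inhibitors, the SOCS proteins. CD41, the integrin encoded by Itga2b, is a platelet protein that also marks a share of stem cells known for a bias towards megakaryocytes and platelets. Stem cells of the marrow are held in their niche by the chemokine Cxcl12 and by adhesion receptors, and most of them divide rarely.

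The libraries held 18.2, 20.2 and 22.2 M counts in V617F mice and 19.97 and 22.9 M in WT mice. Itga2b transcripts stood at 743, 611 and 737 counts scaled to the effective library size (CPM) in V617F and 794 and 916 CPM in WT libraries, and transcripts of the gated proteins Kit and CD150 (Slamf1) were abundant in all 5. Jak2 itself had 209, 193 and 174 CPM in V617F and 165 and 193 CPM in WT cells, and the groups overlapped (log2 fold change 0.10, adjusted p = 0.858). Counts per gene do not separate mutant from normal Jak2 transcripts. The T-cell gene Cd3e was at 0 in all 5 libraries, and the endothelial gene Cdh5 stayed at or under 0.188 CPM. Other endothelial and stromal markers were present. Kdr had 13.4, 7.13 and 10.9 CPM in V617F and 21.9 and 13.1 CPM in WT libraries. For Cxcl12 there were 0.513, 1.40 and 1.45 CPM in V617F and 32.7 and 15.6 CPM in WT libraries. Neutrophil granule transcripts varied between V617F libraries. Ngp had 15.7, 0.598 and 18 CPM in V617F and 2.15 and 2.46 CPM in WT libraries, and Mpo had 25.8 CPM in V617F 1 but at most 1.35 CPM in the other 4. V617F 2, the male mouse, stood apart from the other V617F libraries in Pf4, the platelet chemokine, which had 641, 187 and 620 CPM in V617F and 589 and 630 CPM in WT cells.

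V617F changed few genes past the spread between libraries, and most of them were lower. The table holds 24454 genes, of which 9987 were too low to test. Of the 14467 tested, 168 passed at an adjusted p of 0.05 (1.16%; edgeR's quasi-likelihood test with Benjamini-Hochberg adjustment), 32 higher (0.221%) and 136 lower (0.94%). At an unadjusted p of 0.05 there were 1538 genes. All 168 had groups that did not overlap, as did 41.7% of all genes. The change was 2-fold or more in 143 of them, 24 higher and 119 lower, and the smallest passing log2 change was 0.65 in size. The split by direction varied with level: where the higher group mean reached 50 CPM, 14 genes rose and 17 fell, and where it stayed under 5 CPM, 2 rose and 49 fell. Across all genes the median log2 fold change was 0.03, and 45% of values were negative. The WT side rests on 2 libraries. When each of the 5 libraries was left out in turn, 33 to 170 genes passed, and 28 of the 168 passed in every case, 6 higher and 22 lower. P-values measure the spread between libraries, and the labels do not say that each library is a separate mouse.

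**Figure D1:**
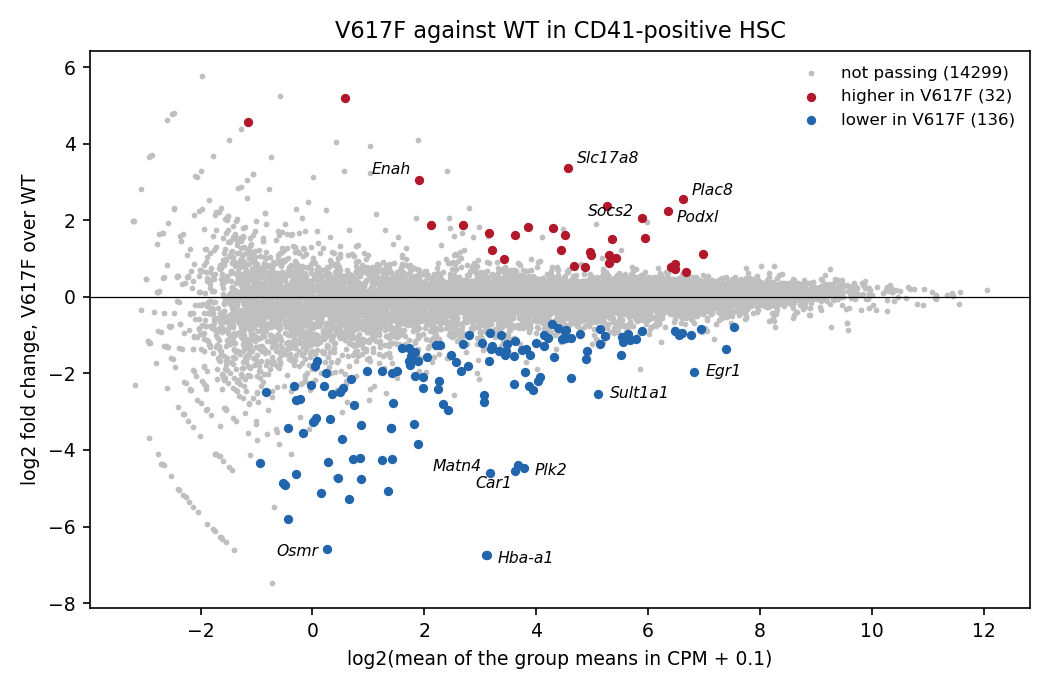
Each point is 1 of the 14467 genes tested, placed by its mean level in the V617F and WT CD41-positive libraries (log2 of CPM + 0.1, horizontal axis) and its log2 fold change, V617F over WT (vertical axis). Red points are the 32 genes that passed and were higher in V617F, blue points the 136 that passed and were lower. At low levels falls outnumber rises, with 49 falls and 2 rises where the higher group mean stayed under 5 CPM.

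Among genes under JAK-STAT control a few moved, and in both directions. Of 22 listed targets and feedback genes 2 rose, 1 fell and the other 19 did not pass, with a median log2 fold change of -0.05. The share that passed was 13.6%, against 1.16% of all genes. Socs2, the STAT5-induced inhibitor of cytokine receptors, had 90.7, 112 and 85.8 CPM in V617F against 24.3 and 21.8 CPM in WT cells, a log2 change of 2.06 ± 0.24 (SE; adjusted p = 0.0015). All 3 V617F libraries were above both WT libraries, 4.17-fold on average. Id1, an inhibitor of basic helix-loop-helix factors that BMP and cytokine signals induce, had 11.1, 8.67 and 10.2 CPM in V617F against 2.79 and 2.67 CPM in WT cells (adjusted p = 0.0208). Bcl6, a transcriptional repressor that STAT5 is known to repress, fell to 1.20, 0.698 and 1.22 CPM in V617F against 5.47 and 2.76 CPM in WT cells (adjusted p = 0.0257). Cish, another STAT5-induced inhibitor, had 65.8, 124 and 80.5 CPM in V617F and 68.4 and 52.0 CPM in WT cells, with overlapping groups (adjusted p = 0.484). The kinase genes Pim1 and Pim2, also known targets, had log2 changes of -0.20 and 0.15 (adjusted p = 0.767 and 0.83). Socs2 passed with each of the 5 libraries left out in turn, whereas Id1 passed only without V617F 2 (adjusted p = 0.0236), with 0.0689 to 0.263 otherwise, and Bcl6 only without WT 4 (0.0235), with 0.0662 to 0.386 otherwise.

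The promoter of Bcl6, which fell, is shown because it holds the letters of a STAT site. TTCNNNGAA, the palindrome that STAT5 binds, occurred 3 times in 1 of the 2 Bcl6 promoter windows in the RefSeq table, shown here, and 1 time in the other (250 bases before to 50 after the start, GRCm38.p6 chr16:23981234-23981533, minus strand). Capitals mark the matches.
Bcl6: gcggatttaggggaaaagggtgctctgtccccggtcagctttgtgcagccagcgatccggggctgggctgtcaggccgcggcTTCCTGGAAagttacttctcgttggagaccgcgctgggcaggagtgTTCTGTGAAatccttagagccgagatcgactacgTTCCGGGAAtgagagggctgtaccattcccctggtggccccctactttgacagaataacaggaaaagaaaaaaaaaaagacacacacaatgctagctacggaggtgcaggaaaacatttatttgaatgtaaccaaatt
The motif was in a promoter window of 8.2% of the 11312 tested genes that have one, of 10% of the 20 risen genes with a window and of 8.65% of the 104 fallen genes with one. A match is a run of letters and not a measured binding site.

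Receptors of the cytokine family changed singly. Of 23 tested, Csf2rb rose, Osmr and Lepr fell and the other 20 did not pass (median log2 -0.23). Among all genes 1.16% passed. In 10 of the 23 every V617F library was below both WT libraries (against 17.8% of all genes), and in 3 above both (against 23.9%). Csf2rb, the shared signalling chain of the GM-CSF, IL-3 and IL-5 receptors, which activates JAK2, had 35, 30.3 and 26.8 CPM in V617F against 11 and 6.55 CPM in WT cells (log2 1.80 ± 0.30, adjusted p = 0.0136). Reads of its close copy Csf2rb2 may be shared with it. Csf2rb2 had 7.84 ± 1.10 CPM in V617F (SD, n = 3) and 4.14 ± 1.47 CPM in WT cells (SD, n = 2; adjusted p = 0.401). Osmr, the oncostatin M receptor chain, had 1 count in all V617F libraries together and 93 in the WT libraries (adjusted p = 0.0136), and Lepr, the leptin receptor, had 5 counts, all in V617F 1, against 107 (adjusted p = 0.0273). Csf2rb did not pass without WT 4 (0.174) or V617F 1 (0.0525). Osmr did not pass without WT 3 (0.136), V617F 1 (0.0657) or V617F 3 (0.0706), and Lepr passed only without V617F 1 (0.0171). None of the 11 JAK and STAT genes passed, and 9 had negative values, Stat2 (log2 -0.62, adjusted p = 0.0822) the furthest.

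The rise with the smallest adjusted p was that of Slc17a8, a vesicular glutamate transporter, with 44.7, 44.1 and 40.4 CPM in V617F against 4.16 and 4.27 CPM in WT cells (log2 3.35 ± 0.23, adjusted p = 1.76e-05). The V617F libraries lay close together, 10.2-fold above WT. Enah, an actin regulator of the Ena/VASP family, had 6.72, 6.68 and 6.14 CPM in V617F against 0.929 and 0.646 CPM in WT cells (log2 3.05 ± 0.34, adjusted p = 0.0015). Rgs7bp, which anchors regulators of G-protein signalling to the membrane, had 19.1, 27.2 and 20.9 CPM in V617F against 6.89 and 5.77 CPM in WT cells (adjusted p = 0.0015). These 3 calls held without each library in turn, with adjusted p-values of at most 0.0334. Plac8, a small cysteine-rich protein found in several blood lineages, had 223, 122 and 159 CPM in V617F against 30.5 and 26.6 CPM in WT cells (log2 2.56 ± 0.43, adjusted p = 0.0136), and did not pass without WT 3 (0.194) or WT 4 (0.16). Clnk, an adaptor of immunoreceptor signalling, Emilin2, an extracellular glycoprotein, Plxdc2, a plexin-domain membrane protein, and the non-muscle myosin heavy chain Myh10 rose by log2 1.67, 1.52, 1.11 and 1.08 (adjusted p = 0.0054, 0.00294, 0.0125 and 0.0259). Clnk and Plxdc2 did not pass without WT 3 (0.0591 and 0.165) or WT 4 (0.108 and 0.141), and Emilin2 not without WT 4 (0.0677). Myh10 passed in none of the 5 omissions (0.0525 to 0.32). Among rises from very low levels, Vipr1, a receptor of vasoactive intestinal peptide, had 158 counts over the V617F libraries against 3 over the WT libraries (adjusted p = 0.0245), and Arfgef3 had 40 against 1 (adjusted p = 0.0478). Vipr1 passed only without V617F 2 (0.0443) or V617F 3 (0.00859), and Arfgef3 in none of the omissions (0.0769 to 0.367). Cd48, whose protein the sort excludes, had 9.28, 3.64 and 6.99 CPM in V617F against 1.47 and 2.15 CPM in WT cells (adjusted p = 0.0499), and passed only without V617F 2 (0.0114), with 0.134 to 0.54 otherwise. The other 6 of the 7 sort marker and driver genes did not pass, among them Tal1 (Scl), whose promoter drives the Cre. Cd48 is 14.3% of that list, whereas 1.16% of all genes passed.

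**Figure D2:**
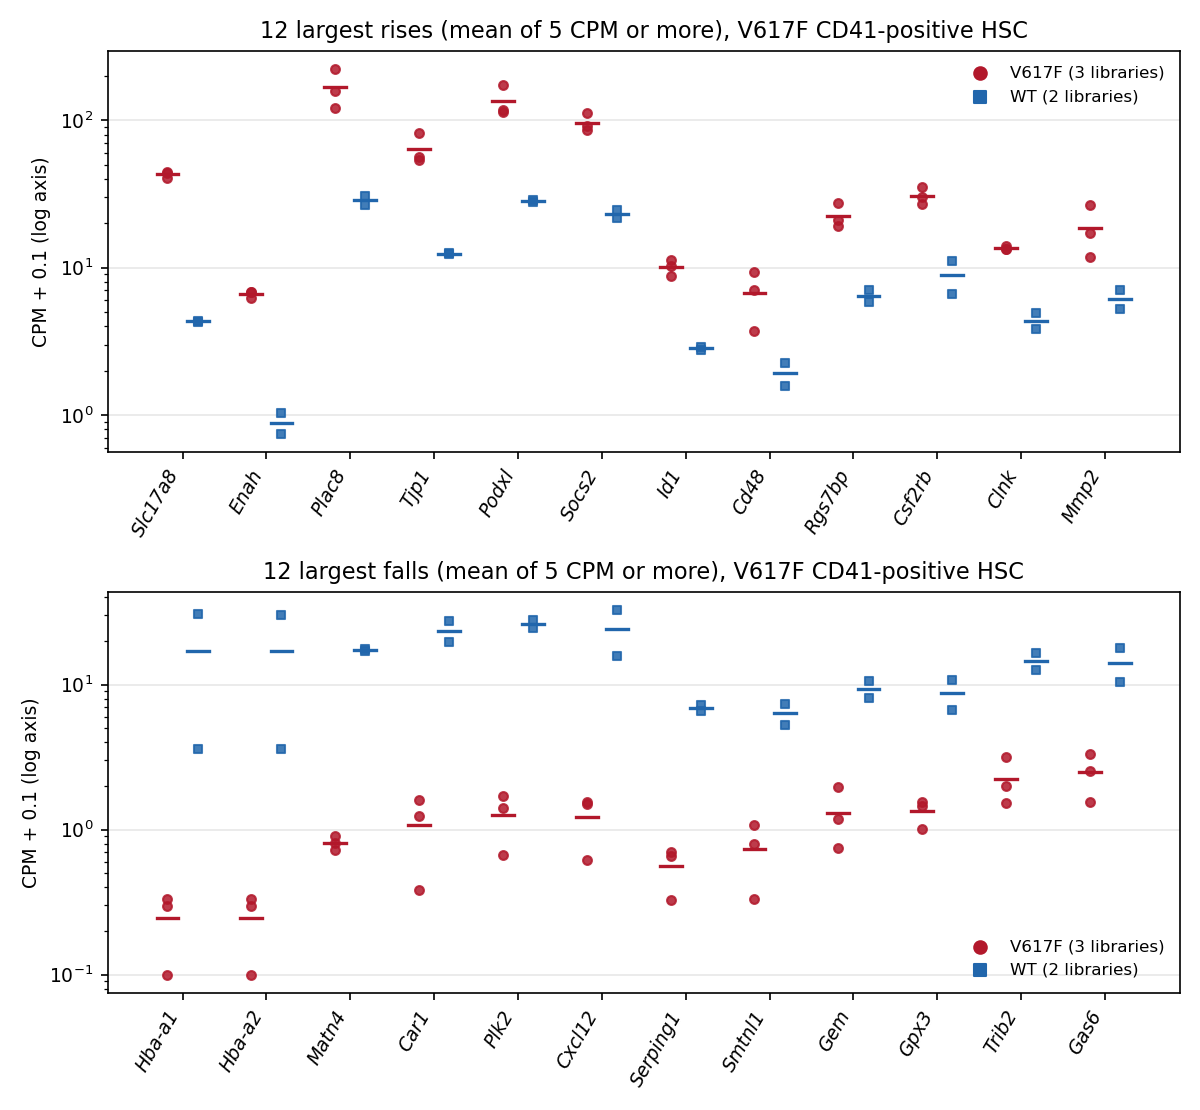
Levels of the 12 largest rises (top) and 12 largest falls (bottom) among passing genes with a mean of at least 5 CPM in a group, on a log axis of CPM + 0.1. Predicted genes (Gm and Rik names), pseudogenes, genes on X or Y and genes with overlapping groups were left out. Red circles are the 3 V617F libraries, blue squares the 2 WT libraries and short lines the group means. In each of the 24 genes the groups are apart, which the choice required. WT 3 and WT 4 are far from each other for Hba-a1 and Hba-a2.

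The falls were led by Plk2, a polo-like kinase that p53 and growth signals induce. It had 0.569, 1.6 and 1.31 CPM in V617F against 27.7 and 24.4 CPM in WT cells, a 22.1-fold lower mean (log2 -4.47 ± 0.30, adjusted p = 1.76e-05), and its adjusted p stayed at or under 0.000717 with any library left out. It was the only 1 of 24 listed p53 targets to pass (4.17%, against 1.16% of all genes). Cdkn1a, Mdm2 and Ccng1, other p53 targets, had log2 changes of 0.02, -0.06 and 0.03, and the median of the list was -0.05. Matn4, a matrix protein known as a brake on stem cell proliferation, had 0.626, 0.798 and 0.703 CPM in V617F against 17.0 and 17.5 CPM in WT cells (24.1-fold lower, log2 -4.59 ± 0.53, adjusted p = 0.0015). The spread within each group was small beside that gap. Matn4 overlaps Rbpjl on chromosome 2, which fell as well (log2 -4.75, adjusted p = 0.0208, and passing only without V617F 2, 0.0114), and reads of the overlapping stretch may be shared.

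Secreted proteins and membrane receptors were among the other falls. Cxcl12, Serping1, Gas6, Gpx3, Smtnl1 and Gem are named for the size of their change and Vcam1 as a member of a list, whereas Mertk, Adipoq and Sfrp1 were picked after their values were seen. Cxcl12, the chemokine that holds stem cells in the niche, had 0.513, 1.40 and 1.45 CPM in V617F against 32.7 and 15.6 CPM in WT cells (log2 -4.40 ± 0.67, adjusted p = 0.0061), and did not pass without WT 3 (0.138). Serping1, the C1 complement inhibitor, had 0.228, 0.598 and 0.563 CPM in V617F against 7.09 and 6.46 CPM in WT cells (14.3-fold lower, adjusted p = 0.0036). Gas6, a ligand of the TAM receptor kinases, had 2.45, 3.24 and 1.45 CPM in V617F against 17.9 and 10.3 CPM in WT cells (5.92-fold lower, adjusted p = 0.00164). The calls of Serping1 and Gas6 held without each library in turn. Mertk, 1 of the receptors of Gas6, fell too, with 10 counts over the V617F libraries against 72 over the WT libraries (adjusted p = 0.0454), and passed in none of the omissions (0.0915 to 0.325). Vcam1, the ligand of integrin alpha-4 on stromal and endothelial cells, had 4 counts against 125 (adjusted p = 0.00164) and passed in every omission. Adipoq, the fat-cell hormone adiponectin, had 1 count against 56 (adjusted p = 0.0293) and passed in none (0.0793 to 0.191). Sfrp1, a secreted Wnt antagonist, fell 3.91-fold (adjusted p = 0.00164), and the antioxidant enzyme Gpx3 6.91-fold (adjusted p = 0.00399). Sfrp1 passed in every omission and Gpx3 not without WT 3 (0.0744). Smtnl1, a smooth muscle regulator, fell 9.95-fold and Gem, a small GTPase that inhibits calcium channels, 7.79-fold (adjusted p = 0.00164 and 0.00514), and Gem did not pass without WT 3 (0.0703). Cxcl12 was the only 1 of 14 chemokine and retention genes to pass (7.14%, against 1.16% of all genes). The median of that list was log2 -0.87, or -0.40 without WT 3.

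Of 10 tested endothelial and stromal markers, 2 fell (Cxcl12 and Lepr) and 0 rose, whereas 0.94% of all genes fell. The median log2 of the list was -0.68, and ran from -0.17 without WT 3 to -1.04 without WT 4. The summed level of the 5 defining markers was 9.02 to 14.2 CPM over the V617F and 31.4 to 58.0 CPM over the WT libraries, nearly all of it Kdr and Cxcl12, while Cdh5 and Col1a1 were at or under 0.188 and 0.684 CPM in all 5. In sorted bulk cells, fewer cells that carry a transcript and less of it per cell cannot be told apart. The part of other cell types in these falls was not tested.

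Erythroid genes fell in a subset. Of 29 tested, 7 fell (24.1%, against 0.94% of all genes), 0 rose and the other 22 did not pass. The median log2 was -0.40. Car1, carbonic anhydrase 1, an early erythroid gene, had 0.285, 1.15 and 1.5 CPM in V617F against 19.5 and 27.3 CPM in WT cells (log2 -4.54 ± 0.65, adjusted p = 0.00427), and passed in every omission. Ermap and Rhd, membrane proteins of red cells, had 10 and 11 counts over the V617F libraries against 140 and 108 over the WT libraries (adjusted p = 0.0259 and 0.0401), and Sphk1 and Add2 had 3 and 2 counts against 61 and 35. These 4 genes passed in none of the omissions. Hba-a1, alpha-globin, had 0, 0.199 and 0.234 CPM in V617F against 30.4 and 3.49 CPM in WT cells (adjusted p = 0.00514), and did not pass without WT 3 (0.0596). Its copy Hba-a2 had the same values to within 0.1 CPM, so the pair is 1 observation. Other erythroid transcripts did not follow. Klf1, the erythroid transcription factor, had 29.3, 23.2 and 34.4 CPM in V617F and 29.9 and 26.0 CPM in WT cells (adjusted p = 0.975), and the globin Hbb-bt had 14.6, 10.7 and 13.5 CPM in V617F and 14.5 and 5.17 CPM in WT cells. Over 5 defining erythroid markers the summed level was 34.6 to 48.6 CPM in V617F and 36.0 to 77.7 CPM in WT libraries, and its part in these falls was not tested.

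Of the 19 genes listed as interferon-inducible GTPases, the 6 that passed lay together on chromosome 5. These large GTPases attack the membranes around intracellular pathogens, and in the mouse the guanylate-binding protein (Gbp) genes form a cluster on chromosome 5 and another on chromosome 3. All 6 tested Gbp genes of chromosome 5 (chr5:105012513-105346476, GRCm38.p6, with no other tested gene inside the span) fell (log2 -2.76 to -1.20, median -2.30), whereas 0 of the 5 of chromosome 3 (chr3:142496934-142638008) passed (log2 -0.70 to 0.05, median -0.16), nor did the 8 other members of the list (-0.66 to -0.15). The 6 are 31.6% of the 19 genes of the list, whereas 0.94% of all genes fell. The list has a median log2 of -0.50. Values were negative for 18 of the 19, and in 17 (against 17.8% of all genes) every V617F library was below both WT libraries, among them 4 of the 5 on chromosome 3 and 7 of the 8 others. The difference between the clusters was not tested. Gbp4 had 3.30, 4.34 and 6.84 CPM in V617F against 27.8 and 20.8 CPM in WT cells (5.00-fold lower, adjusted p = 0.00164). Gbp9 had 3.7, 3.24 and 5.39 CPM in V617F against 25.6 and 14.6 CPM in WT cells (4.87-fold lower, adjusted p = 0.0015). In both, every V617F library was below both WT libraries. Gbp8 had 9.34, 9.17 and 10.1 CPM in V617F against 23.5 and 20.6 CPM in WT cells (2.30-fold lower, adjusted p = 0.00396). On chromosome 3, Gbp2 had 65.7, 66.6 and 53.3 CPM in V617F and 82.6 and 69.3 CPM in WT cells (adjusted p = 0.54), and Gbp7 had 178, 199 and 197 CPM in V617F and 221 and 203 CPM in WT cells (adjusted p = 0.763). Gbp4 and Gbp9 passed in every omission. Gbp8 did not pass without WT 3 (0.0775), Gbp6 not without WT 3 (0.263) or V617F 1 (0.0894), Gbp10 only without V617F 3 (0.0279), with 0.0626 to 0.34 otherwise, and Gbp11 in none (0.0607 to 0.318). The chromosome 5 genes are close copies of each other, so their 6 calls may share reads, and the grouping by chromosome was made after the values were seen. RefSeq labels Gbp11 a transcribed pseudogene.

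**Figure D3:**
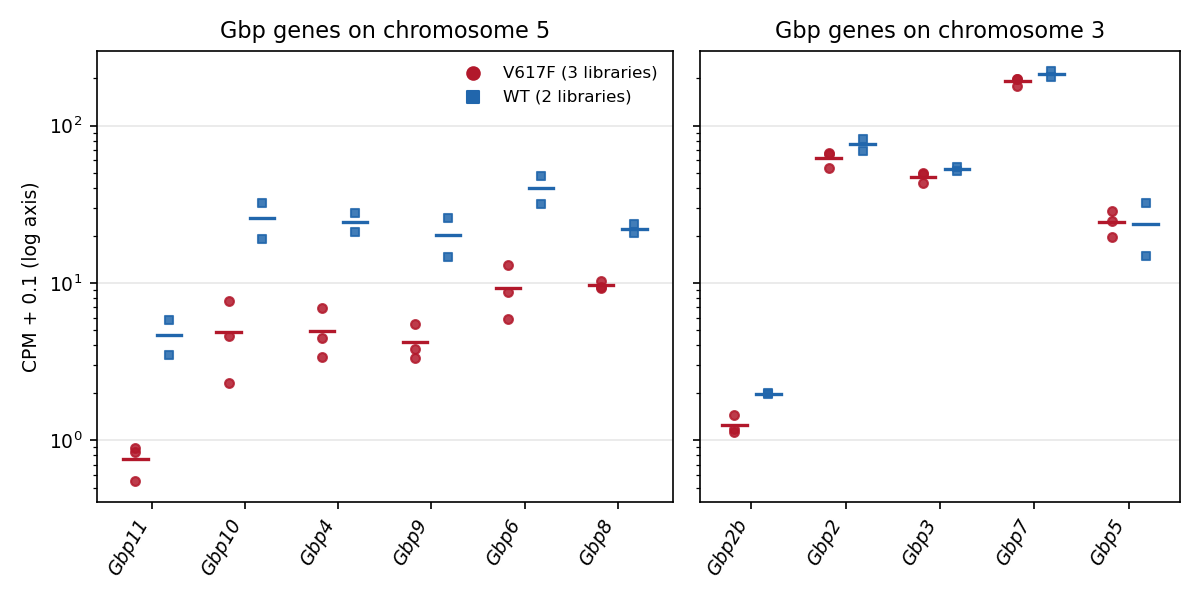
Levels of the 11 tested guanylate-binding protein genes, those of chromosome 5 on the left and those of chromosome 3 on the right, on a log axis of CPM + 0.1. Red circles are the 3 V617F libraries, blue squares the 2 WT libraries and short lines the group means, and every V617F library is below both WT libraries for all 6 genes on the left and for 4 of the 5 on the right, with log2 changes of -2.76 to -1.20 on the left and -0.70 to 0.05 on the right.

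A minority of the classical interferon response genes passed. Of 45 tested, 3 fell (6.67%, against 0.94% of all genes), 0 rose and the other 42 did not pass. The median log2 was -0.42. Negative values were found for 39 of the 45, and in 33 (against 17.8% of all genes) every V617F library was below both WT libraries. Ifit1, which binds foreign RNA caps, had 14.2, 9.92 and 19.0 CPM in V617F against 51.8 and 37.4 CPM in WT cells (3.10-fold lower, adjusted p = 0.0293). Ifi44 had 30.3, 32.5 and 41.8 CPM in V617F against 85 and 66 CPM in WT cells (adjusted p = 0.0481). Mx2, of the dynamin-like GTPases, fell 3.22-fold (adjusted p = 0.0324). It lies on chromosome 16, and RefSeq labels it a transcribed pseudogene. Irf7, the factor that amplifies the response, had 18.6, 11.3 and 26.7 CPM in V617F and 45.5 and 43.9 CPM in WT cells, which did not pass (adjusted p = 0.189). Ifit1 passed only without V617F 3 (0.0351), with 0.0722 to 0.343 otherwise, and Ifi44 and Mx2 in none of the omissions (0.0552 to 0.516). The list median was negative without each library in turn (-0.47 to -0.36). Of the antigen presentation lists, Cd74, the MHC class II invariant chain, fell (log2 -1.17, adjusted p = 0.0403) among 11 class II genes, and passed only without V617F 2 (0.0191). Cd74 is 9.09% of the class II list, whereas 0.94% of all genes fell. The class I list had 0 of 17 passing.

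The promoters of Ifit1, which fell, and of Gbp2, which did not pass, are shown because both carry the letters of an interferon-stimulated response element, GAAA, any 2 bases and GAAA again. Capitals mark the matches, which here lie on the opposite strand and so begin and end with TTTC. The windows are chr19:34640639-34640938 (plus strand) for Ifit1 and chr3:142620413-142620712 (plus strand) for Gbp2, from RefSeq on GRCm38.p6.
Ifit1: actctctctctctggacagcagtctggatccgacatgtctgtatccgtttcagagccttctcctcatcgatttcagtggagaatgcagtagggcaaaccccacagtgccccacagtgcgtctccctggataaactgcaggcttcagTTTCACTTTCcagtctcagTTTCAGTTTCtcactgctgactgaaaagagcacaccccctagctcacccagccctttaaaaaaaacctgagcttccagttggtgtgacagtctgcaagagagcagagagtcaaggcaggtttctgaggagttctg
Gbp2: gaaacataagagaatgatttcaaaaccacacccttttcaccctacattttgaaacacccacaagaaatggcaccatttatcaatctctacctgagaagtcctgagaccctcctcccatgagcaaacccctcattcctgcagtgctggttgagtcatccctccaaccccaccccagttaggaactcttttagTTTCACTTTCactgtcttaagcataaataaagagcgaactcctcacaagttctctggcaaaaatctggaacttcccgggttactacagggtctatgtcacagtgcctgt
The letters were found, on either strand, in 90.9% of the 11 GTPase genes with a window, which include none of the 6 that fell, and in 53.1% of the 32 interferon response genes with one, against 3.84% of all tested genes with one. Among fallen genes the share was 5.77% (6 of 104) and among risen genes 5.0% (1 of 20).

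Stem cell genes were lower for a minority. Of 35 genes of identity and quiescence, 5 fell (Egr1, Mllt3, Ndn, Rarb and Sult1a1), 0 rose and 30 did not pass. The fallen share was 14.3%, against 0.94% of all genes, and the median log2 was -0.26. Sult1a1, a sulfotransferase enriched in stem cells, had 6.32, 19.2 and 4.83 CPM in V617F against 65.9 and 51.7 CPM in WT cells (5.79-fold lower, adjusted p = 0.0208). Mllt3, a chromatin reader that supports stem cell maintenance, had 83.7, 93.6 and 86.6 CPM in V617F against 168 and 150 CPM in WT cells (adjusted p = 0.00966). Ndn, an imprinted growth suppressor, had 28.1, 41.9 and 26.1 CPM in V617F against 69.0 and 71.1 CPM in WT cells (adjusted p = 0.0221). V617F 2 was the highest V617F library for each of these 3 genes. Retinoic acid, a signal linked to stem cell dormancy, has a receptor and a degrading enzyme among the falls. Rarb, the receptor, had 7.69, 9.92 and 5.16 CPM in V617F against 22.1 and 21.3 CPM in WT cells (adjusted p = 0.0208). Cyp26b1, the enzyme, which is on no list and was picked after its values were seen, had 0.342, 0.199 and 0.234 CPM in V617F against 5.96 and 3.88 CPM in WT cells (18.8-fold lower, adjusted p = 0.0015), and passed in every omission. Sult1a1, Ndn and Rarb passed only without V617F 2 (adjusted p = 0.00146, 0.00531 and 0.0114), with 0.0647 to 0.199 otherwise, and Mllt3 not without WT 3 (0.194), V617F 1 (0.0589) or V617F 3 (0.0502). The defining stem cell markers summed to 1376 to 1727 CPM over the V617F and 1941 to 1943 CPM over the WT libraries, and none of the 7 passed. The part of a different mix of cells within the gate was not tested.

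Procr, the endothelial protein C receptor and a marker of the most primitive stem cells, was picked because its result depended on the male library. It had 14.4, 37.4 and 12.2 CPM in V617F against 53.8 and 37.5 CPM in WT cells, with V617F 2 just below WT 4, and did not pass (log2 -1.10, adjusted p = 0.221). Without V617F 2 its log2 change was -1.78 with an adjusted p of 0.00254. The transcription factor gene Hlf had 102, 182 and 114 CPM in V617F and 201 and 172 CPM in WT cells, with V617F 2 again the highest V617F library. Cdkn1c, the CDK inhibitor p57 and an imprinted gene, had 16.2, 28.5 and 20.5 CPM in V617F and 45.2 and 41.3 CPM in WT cells (adjusted p = 0.0535, and 0.0136 without V617F 2). Sex and mouse cannot be told apart for this library.

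Genes known to rise in stem cells of old mice mostly had negative values. Of 28 tested, 5 fell (Fhl1, Osmr, Ptprk, Ramp2 and Runx1t1), 1 rose (Plscr2) and 22 did not pass. The share that passed was 21.4%, against 1.16% of all genes, and the median log2 was -0.77. Values were negative for 24, and in 20 (against 17.8% of all genes) every V617F library was below both WT libraries. Ramp2, a partner of the adrenomedullin receptor, had 0.342, 0.698 and 0.234 CPM in V617F against 4.84 and 4.44 CPM in WT cells (10.8-fold lower, adjusted p = 0.0056). Ptprk, a receptor tyrosine phosphatase, had 3.08, 2.59 and 2.77 CPM in V617F against 8.75 and 7.5 CPM in WT cells (adjusted p = 0.00203). Plscr2, of the phospholipid scramblase family, had 87.2, 107 and 80.7 CPM in V617F against 31.6 and 31.5 CPM in WT cells (2.90-fold higher, adjusted p = 0.00337). Ramp2 and Ptprk did not pass without WT 3 (0.0616 and 0.051), Plscr2 not without WT 3 (0.072) or WT 4 (0.059), Runx1t1 only without V617F 2 (0.00655), and Fhl1 in none of the omissions. Whether the groups were of equal age was not given.

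Immediate early genes, which cells induce within minutes of a stimulus or of handling, fell for a minority. Of 21 tested, 3 fell (14.3%, against 0.94% of all genes), 0 rose and 18 did not pass. The median log2 was -0.77. Junb, an AP-1 subunit, had 113, 84.6 and 87.8 CPM in V617F against 286 and 200 CPM in WT cells (adjusted p = 0.0255). Egr1, a zinc finger factor also linked to stem cell retention, had 66.3, 37.1 and 36.1 CPM in V617F against 213 and 148 CPM in WT cells (adjusted p = 0.0241). Zfp36, which destabilises inflammatory mRNAs, fell to 73.0 ± 7.90 CPM in V617F, against 146 ± 20.3 CPM in WT cells (adjusted p = 0.0293). Fos varied more, with 44.6, 8.18 and 21.3 CPM in V617F and 107 and 74.9 CPM in WT cells (adjusted p = 0.369), and Jun overlapped between groups. Junb and Zfp36 passed in none of the omissions (0.0525 to 0.375) and Egr1 only without V617F 1 (0.0248). WT 3 had the highest value of the 5 libraries for Egr1, Junb, Zfp36 and Fos, and the part of that library or of handling was not tested. Of 19 NF-kB targets Ltb, a lymphotoxin chain, fell 2.33-fold (adjusted p = 0.00194) and passed in every omission. It was the only 1 of that list to pass (5.26%, against 1.16% of all genes).

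Adhesion and junction genes moved both ways. Of 31 tested, Podxl and Tjp1 rose, Jam2, Jam3 and Vcam1 fell and 26 did not pass, with a median log2 of 0.04. The share that passed was 16.1%, against 1.16% of all genes. Podxl, a CD34-related sialomucin of stem cells and endothelium, had 117, 174 and 115 CPM in V617F against 28.9 and 27.9 CPM in WT cells (4.76-fold higher, adjusted p = 0.0015). Tjp1, the tight junction scaffold ZO-1, had 54.0, 81.9 and 56.4 CPM in V617F against 12.4 and 12.2 CPM in WT cells (5.21-fold higher, adjusted p = 0.0015). Both passed in every omission. The junctional adhesion molecules went the other way. Jam2 had 16.1, 15.2 and 16 CPM in V617F against 33.0 and 33.3 CPM in WT cells (adjusted p = 0.0293), and Jam3, its binding partner, fell 1.99-fold (adjusted p = 0.0307). Outside the list, and picked after their values were seen, Lsr and Ildr1, which mark corners where 3 cells meet, fell 2.89-fold and 3.80-fold (adjusted p = 0.00193 and 0.0293), and for the claudin Cldn5 there were 0, 0.498 and 0.141 CPM in V617F against 6.06 and 2.63 CPM in WT cells (adjusted p = 0.0417). Lsr passed in every omission. Jam2 passed in none (0.0716 to 0.279), Jam3 and Cldn5 only without V617F 2 (0.0463 and 0.0364) and Ildr1 only without V617F 3 (0.0261).

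Of 19 matrix genes, Mmp2, a gelatinase, rose 3.04-fold (adjusted p = 0.0493) and passed only without V617F 3 (0.03), and Tinagl1, a basement membrane protein, had 3.19, 7.73 and 6.52 CPM in V617F against 28.4 and 24.8 CPM in WT cells (4.55-fold lower, adjusted p = 0.00194) and passed in every omission. These 2 are 10.5% of the matrix list, against 1.16% of all genes that passed. In the TGF-beta and BMP list Id1 and Skil, a co-repressor of SMAD factors, rose among 29 genes (6.9%, against 0.221% of all genes) and 0 fell. The list median was log2 -0.16, and 18 of the 29 values were negative. In 12 every V617F library was below both WT libraries (against 17.8% of all genes), and in 5 above both (against 23.9%). Skil had 62.7, 65.5 and 45.1 CPM in V617F against 26.8 and 30.3 CPM in WT cells (adjusted p = 0.015), and did not pass without WT 3 (0.279), WT 4 (0.101) or V617F 1 (0.0692). Id3, a relative of Id1, had a log2 change of 1.74 that did not pass (adjusted p = 0.054).

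Megakaryocyte and platelet genes, the programme that CD41 is linked to, did not pass singly. Of 35 tested, 0 rose and 0 fell, 27 had negative values and the median log2 was -0.29. In 17 every V617F library was below both WT libraries (against 17.8% of all genes), and in 2 above both (against 23.9%). Vwf, the platelet adhesion protein von Willebrand factor, had 409, 309 and 452 CPM in V617F and 476 and 502 CPM in WT cells, with no overlap (adjusted p = 0.635). F2r, the thrombin receptor, had 867, 653 and 757 CPM in V617F and 491 and 431 CPM in WT cells, with no overlap (adjusted p = 0.0767). V617F 2 was the lowest V617F library for Pf4, Vwf, F2r, Selp and Itga2b. The 5 defining markers summed to 877 to 1507 CPM over V617F and 1499 to 1656 CPM over WT libraries.

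Genes of DNA replication, mitosis and oxidative phosphorylation had small positive values, and 0 on these 3 lists passed. In the DNA replication list all 32 values were positive, and in 30 of the 32 every V617F library was above both WT libraries, against 23.9% of all genes. The count was 20 of 30 for mitosis genes and 28 of 38 for oxidative phosphorylation, with 0 of either list on the other side. The medians were 0.36, 0.30 and 0.22. Outside the lists, and picked after their values were seen, Pclaf, a factor of the replication clamp, had 117, 103 and 114 CPM in V617F against 68.5 and 65.7 CPM in WT cells (adjusted p = 0.0489), and Esco2, which joins sister chromatids, rose 1.70-fold (adjusted p = 0.0392). Neither passed in any omission. Glycolysis, cholesterol synthesis, ribosome biogenesis, unfolded protein response, Bcl2 family, cyclin, Hox and Gimap lists also had 0 passing genes. Among these, cholesterol synthesis had a median of 0.28, with 20 of 22 values positive. In 11 of the 22 every V617F library was above both WT libraries, and in 0 below both.

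**Figure D4:**
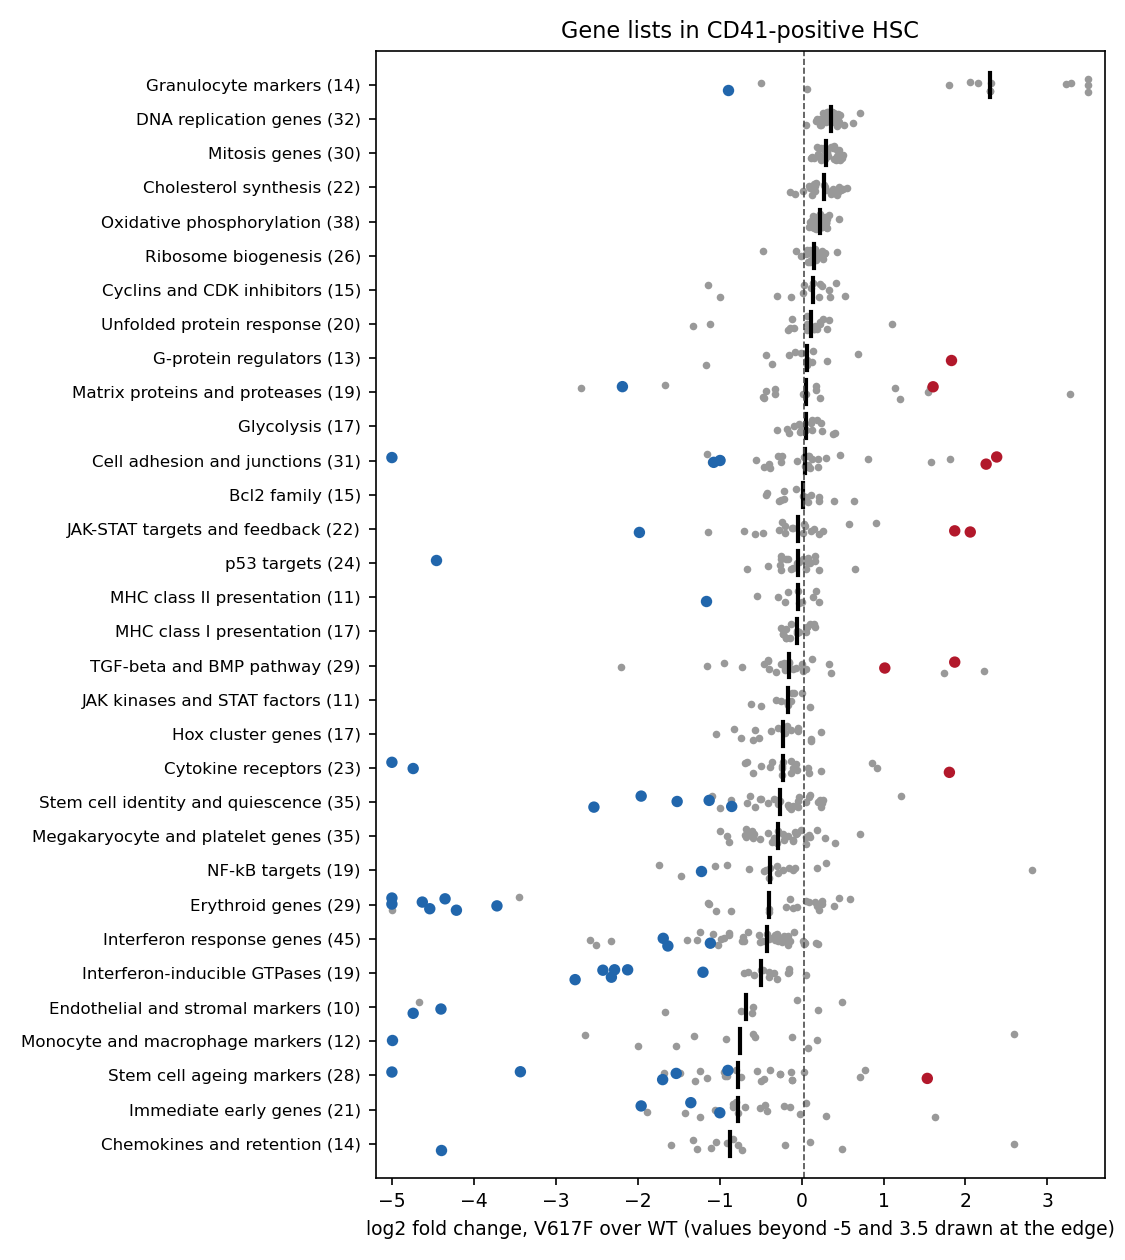
Log2 fold changes, V617F over WT (horizontal axis), of the tested members of each list with at least 10 of them, the number tested in brackets. Grey points did not pass, red points passed and were higher in V617F, blue points passed and were lower, black bars are list medians and the dashed line is the median of all genes, 0.03; medians of the replication and mitosis lists lie right of it and those of the immediate early, ageing and interferon lists left.

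Granulocyte markers had the highest list median, log2 2.30 over 14 genes, with 0 rising and 1 falling (7.14%, against 0.94% of all genes). V617F 1 and V617F 3 were the high libraries, as for Ngp above, and V617F 2 was below both WT libraries for Ngp, S100a8 and S100a9 and between them for Ltf. Over 9 defining markers the sum was 51.8 to 133 CPM in V617F and 82.3 to 91.0 CPM in WT libraries. In V617F 2 and the WT libraries most of that sum was Prtn3, so its overlapping ranges do not describe the other markers. S100a9 had 14.1, 0.349 and 11.5 CPM in V617F against 1.91 and 2.24 CPM in WT cells. Camp and Ltf were also highest in V617F 1 and V617F 3, whereas Mpo, Ctsg and Elane were high in V617F 1 only. Prtn3, proteinase 3, which early progenitors also express, went the other way, with 40.7, 47.5 and 36.7 CPM in V617F against 81.9 and 73.1 CPM in WT cells (adjusted p = 0.0114), and passed only without V617F 2 (0.00897). Monocyte markers (1 of 12 lower, Vcam1, 8.33% against 0.94% of all genes), mast cell (0 of 5) and B and T cell markers (0 of 4) showed no other call.

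The CD41-negative cells of the same gate served to ask whether these changes belonged to the CD41-positive cells. Their 6 libraries (3 V617F, of which V617F 2 is again male, and 3 WT) are separate, although V617F libraries of equal number deviated together between the fractions. Of the 168 genes, 129 also passed there with the same sign (76.8% of the CD41-positive and 6.65% of the 1941 CD41-negative calls, 13.4% of genes), and 39 did not pass. In the test of the difference itself, 0 of 14467 genes passed with edgeR (lowest adjusted p = 0.566), 1274 had an unadjusted p under 0.05 (8.81%), and DESeq2 called 6. The median size of the log2 change of the 168 was 1.79 in CD41-positive and 1.31 in CD41-negative cells, but they were chosen for passing in the first. Plk2 had log2 -4.47 in CD41-positive and -3.93 in CD41-negative HSC, Slc17a8 3.35 and 3.15, and Car1 -4.54 and -5.40. Each of these passed in both fractions. All 6 Gbp genes of chromosome 5 passed in CD41-negative HSC as well, at log2 -2.10 to -0.71. Lepr had opposite signs, at log2 -4.74 in CD41-positive and 1.25 in CD41-negative HSC (adjusted p = 0.0273 and 0.25). Serping1 had log2 -3.83 in CD41-positive and -1.29 in CD41-negative HSC, and Cxcl12 had -4.40 and -2.10. Ifi44 had -1.11 and 0.03, and Prtn3 -0.90 and 0.16. Socs2 had 2.06 in CD41-positive and 2.80 in CD41-negative HSC. These pairs did not differ at an adjusted p of 0.05 with edgeR. Prtn3 and Lepr were among the 6 calls of DESeq2 (adjusted p = 0.0117 each), with Anxa2, Cftr, Dglucy and Igf2bp2.

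**Figure D5:**
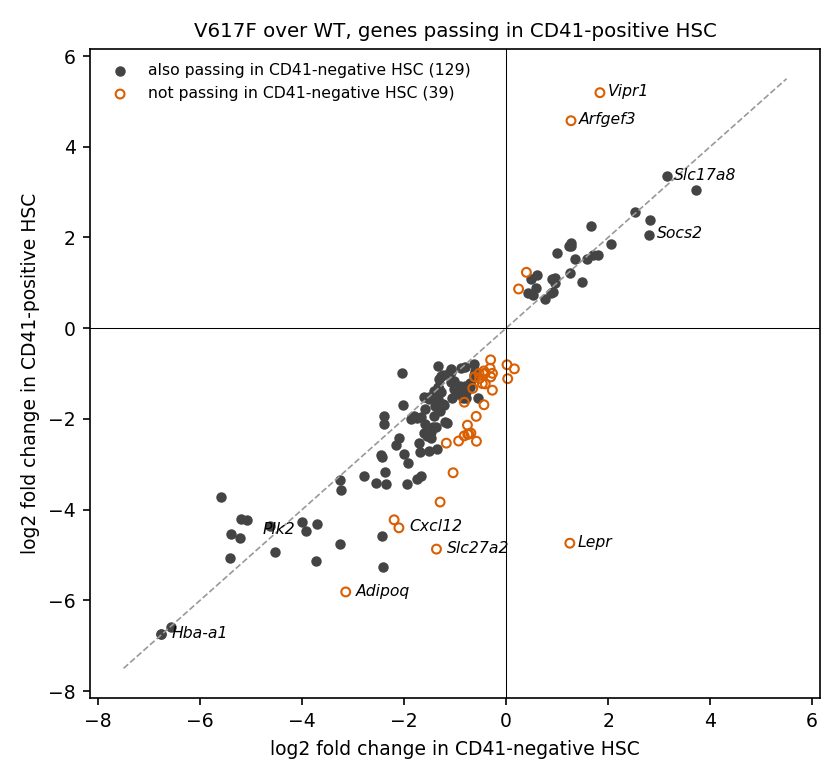
Log2 fold change, V617F over WT, of the 168 genes that passed in CD41-positive HSC (vertical axis) against the change of the same genes in CD41-negative HSC (horizontal axis). Dark points are the 129 genes that also passed in CD41-negative HSC, open orange points the 39 that did not, and the dashed line marks equal change; Lepr lies on the other side of 0 in CD41-negative HSC.

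In long-term HSC that were not split by CD41, which were made with SMART-Seq v2 and have only male V617F and only female WT mice, 159 of the 168 genes were tested. Values had the same sign for 105 of the 128 fallen genes (82.0%, against 52.7% of all genes with negative values) and for 20 of the 31 risen genes (64.5%, against 47.3% of all genes with positive values). Car1 and Cd74 passed there, both lower (adjusted p = 0.0376 each), and Slc17a8 had a log2 change of 5.2 (adjusted p = 0.0862).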

How the data were processed

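The deposited table holds raw read counts per gene for all 23 libraries. Per the submitters' processing notes the authors used STAR 2.5.2a, the mm10 build, R 3.4.2 and limma. The sources used here do not give the counting tool, its annotation or whether it used strand, so reads of overlapping genes, antisense partners and close copies may be shared. Of 24454 gene identifiers, 24374 were matched to RefSeq (GRCm38.p6) for positions and names.

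The 11 SMART-Seq v4 libraries of CD41-positive and CD41-negative HSC were fitted together in edgeR 4.0.16 (R 4.3.3), with 4 groups, TMM scaling, edgeR's expression filter and 7 residual degrees of freedom, so that all groups share 1 estimate of the spread. The fit treats the 11 libraries as independent, although V617F libraries of equal number deviated together between the fractions (correlations 0.301, 0.419 and 0.298). V617F was tested against WT within each fraction, and the difference of the 2 effects between fractions, by the quasi-likelihood test with Benjamini-Hochberg adjustment over all 14467 genes. LT-HSC, from another protocol, were fitted apart. Adjusted p-values in the text are from edgeR unless DESeq2 (1.42.0) is named. CPM were computed with TMM-scaled library sizes, and SD are over libraries. The fits were tested on simulated data.

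Named genes are the 12 largest changes in each direction that passed with a group mean of at least 5 CPM, up to 4 members of each list with the smallest adjusted p, and a fixed set. The 12 largest changes leave out predicted genes (Gm and Rik names), pseudogenes, genes on X or Y and genes with overlapping groups. Genes outside these were chosen after their values were seen. The genes, lists and tests were chosen with earlier results of these data known. V617F and WT CD41-positive libraries share only the number 3, and those 2 libraries did not deviate together (residual correlation -0.07). Promoter windows are from RefSeq. Some genes are not reported here. Alternatives were RLE scaling, DESeq2 1.42.0, limma-voom (limma 3.58.1), other filters, a fit of the CD41-positive libraries alone, each library left out, genes of X and Y left out, sex as a covariate, a replicate block, and limma-voom with libraries of equal genotype and number as 1 source.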

Additional observations from a re-analysis of the deposited data

How the results depend on the processing

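Against 168 genes (32 higher, 136 lower), 520 passed (154 higher, 366 lower) when only the CD41-positive libraries were fitted, 455 (108, 347) with DESeq2, 262 (46, 216) without a filter and 251 (38, 213) with sex as a covariate. Without the WT CD41-negative libraries rich in Lars2, an alternative added after seeing the data, it was 389 (98, 291). Leaving out 1 library gave 33 to 170 genes (6 to 22 higher, 24 to 148 lower): 33 without WT 3, 54 without WT 4, 58 without V617F 1, 170 without V617F 2 and 72 without V617F 3. With the replicate number as a block, 188 genes passed, but V617F and WT share only the number 3, so this is no paired analysis. Limma-voom with libraries of equal genotype and number as 1 source gave 124 genes, 108 of them among the 168. RLE scaling gave 173, limma-voom 119, a filter of 5 CPM 132. All 168 genes kept their sign in every setting in which they were tested. Their groups do not overlap, so leaving out a library could hardly turn a sign, and the other settings use the same counts. The difference between fractions had 0 calls in every setting except DESeq2 (6). The adhesion list's median turned to -0.051 without WT 4 (-0.051 to 0.047 over the omissions, main 0.04), and that of the sort markers to -0.0096 without WT 3 (-0.0096 to 0.17, main 0.10). The cause of these changes was not tested. With 2 WT libraries a change in a gene of few counts is poorly resolved: the median SE was log2 0.20 over all genes.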

Other observations

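Calls on no list were the majority, 119 of 168. Of those below, Trib2 is named for the size of its change and the others were picked after their values were seen. Pgr, the nuclear progesterone receptor, had 2.96, 1.69 and 3 CPM in V617F against 9.92 and 9.74 CPM in WT cells (log2 -1.94, adjusted p = 0.015, edgeR). Paqr5, a membrane progestin receptor, had 4.9, 7.58 and 6 CPM in V617F against 18.6 and 17.2 CPM in WT cells (log2 -1.54, adjusted p = 0.00194, edgeR). Paqr5 passed without each library in turn, and Pgr did not pass without WT 3 (0.137), WT 4 (0.0978) or V617F 1 (0.0522). Meg3, an imprinted long non-coding RNA known from long-term stem cells, had 0.114, 0.15 and 0.141 CPM in V617F against 5.96 and 3.53 CPM in WT cells (log2 -5.07, adjusted p = 0.000925, edgeR), and passed without each library in turn. Trib2, a pseudokinase, had 1.42, 1.89 and 3.09 CPM in V617F against 16.3 and 12.5 CPM in WT cells (log2 -2.73, adjusted p = 0.00514, edgeR), and did not pass without WT 3 (0.0703).

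Without V617F 2, 64 further genes passed, 1 higher and 63 lower in V617F, and 62 of the 168 no longer did. More of the 168 were lost without each other library, 113 without V617F 1 and 100 without V617F 3. Among those gained were the stem cell genes Procr and Cdkn1c. Of 10146 genes with a mean of at least 10 CPM, 21 were at least 2-fold higher and 20 at least 2-fold lower in V617F 2 than in both other V617F libraries, against 4 and 7 for V617F 1 and 0 and 5 for V617F 3. Sex, animal and library cannot be told apart for V617F 2.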
